A study of Mus musculus with 384 samples.

Results

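Lipopolysaccharide (LPS), a glycolipid of the Gram-negative outer membrane, and Pam3Cys, a synthetic triacylated lipopeptide, were compared in wild-type (WT) bone-marrow-derived macrophages over 4 h of stimulation. The 28 wells of this comparison, of 96 wells on each of 4 plates in the series, are those that the labels place in WT cells with LPS alone or with Pam3Cys at 0.5, 1, 1.5, 2, 2.5, 3 and 4 h. There were 14 wells per ligand, 7 on each of 2 plates, and a well with a ligand on a plate was set beside the well with the other ligand at the same time on the same plate. Wells given muramyl dipeptide together with LPS were not members. The labels name 12 ligands in all, and 2 of the 4 plates carry Myd88 knockout (KO) cells. The macrophages were grown from the marrow of male C57BL/6 mice, 13 weeks old. All of them, the unstimulated wells included, had first been transduced with a pool of viral reporters of signalling pathways and replated. Time 0 was measured in 12 wells per plate that carry a ligand label, and these were summed. The sources used here give neither the ligand concentrations nor how many mice gave marrow to a plate.

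LPS is sensed by TLR4 with its co-receptors MD-2 (Ly96) and CD14, and Pam3Cys by the pair of TLR2 with TLR1. Both receptors signal through the adaptor MyD88 to NF-kB and the MAP kinases, which switch on the inflammatory genes of macrophages. TLR4 also recruits the adaptor TRIF from endosomes, which activates the transcription factor IRF3, interferon-beta, and through the interferon receptor the interferon-stimulated genes.

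Transcript 3′ ends were counted per gene in each well, and levels are given as CPM, counts scaled to the TMM-adjusted library size. The 28 wells held 106245 to 570465 counts, with a median of 359714. The early Pam3Cys wells of plate 2 stood apart. They held 106245 counts at 0.5 h, 122510 at 1 h and 192526 at 1.5 h, and the ribosomal transcript Rn45s took 23.0%, 20.2% and 15.5% of their counts. The Pam3Cys well of plate 2 at time 0 was shallow too, with 84108 counts and an Rn45s share of 18.3%. These wells also carried more of the IRF3 target genes described below, with a summed level of 10661 CPM at time 0, 12193 at 0.5 h and 8535 at 1 h, against 3314, 3450 and 3389 CPM in the wells of the same times on plate 1. At time 0 the NF-kB targets of this plate 2 well summed to 14452 CPM, against 5731 CPM on plate 1. Its immediate early genes summed to 3653 CPM at time 0 and, in the next well, to 3569 CPM at 0.5 h. On plate 1 these sums were 2455 and 12137 CPM. The cause was not tested. Early calls without the wells under 150000 counts, and sums of plate 1 alone, are given below.

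The cells carried macrophage transcripts with either ligand: the macrophage markers summed to 3968 and 4115 CPM late after LPS on plates 1 and 2, and to 4405 and 4391 CPM after Pam3Cys. Markers of T cells, B cells, NK cells, mast cells, erythroid cells and fibroblasts summed to at most 9.01 CPM, with NK, mast cell and erythroid markers all at 0. Neutrophil markers summed to 128.0 and 119.7 CPM with LPS and to 115.0 and 108.3 CPM with Pam3Cys, with Elane and Mpo at 0. Endothelial markers differed, at 105.0 and 68.2 CPM with LPS against 17.9 and 22.4 CPM with Pam3Cys. That sum was nearly all Kdr, a receptor for vascular endothelial growth factor, and Pecam1 and Tek were at 0. Kdr itself passed the late test described below (log2 difference 2.18, SE 0.49, adjusted p = 0.0013 by edgeR), but not without plate 1, at 1.73 (adjusted p = 0.299). Dendritic cell markers summed to at least 20.6 CPM with LPS and to 12.2 and 23.1 CPM with Pam3Cys. In bulk wells, fewer cells of a type and less RNA per cell cannot be told apart.

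The transcripts of the 2 ligands parted mainly from 2 h on, and most of the genes that parted were higher with LPS. Counts per well were tested at each time with edgeR's quasi-likelihood test, with p adjusted by Benjamini and Hochberg over the 9089 genes tested and a gene called at an adjusted p under 0.05. At 0.5 h, 3 genes (0.033%) were called, Nfkbia and Phlda1 higher with LPS and Hspa9 lower. No gene was called at 1 h by edgeR or by DESeq2 (0.0%), with 474 genes at an unadjusted p under 0.05. Peli1 and Ccl4 were called at 1.5 h (0.022%), where the count was 0 with DESeq2's size factors, 0 without plate 2, 16 without plate 1 and 10 by DESeq2, with 547 genes at an unadjusted p under 0.05. There followed 35 genes at 2 h (0.385%), 75 at 2.5 h (0.825%), 156 at 3 h (1.72%) and 231 at 4 h (2.54%). Of these, 31 (0.341%), 69 (0.759%), 139 (1.53%) and 193 (2.12%) were higher with LPS at 2, 2.5, 3 and 4 h. At time 0, where the wells carry a ligand label but were unstimulated, edgeR called 1 gene (Tcea1, 0.011%), with 449 at an unadjusted p under 0.05. These wells also differed in depth, with 304734 counts in the LPS well of plate 2 and 84108 in its Pam3Cys well. In all, 296 genes (3.26%) were called at 1 or more of the 7 times, and 119 of them were first called at 4 h. Without plate 2 the 296 became 118, and without plate 1 they became 239.

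**Figure D1:**
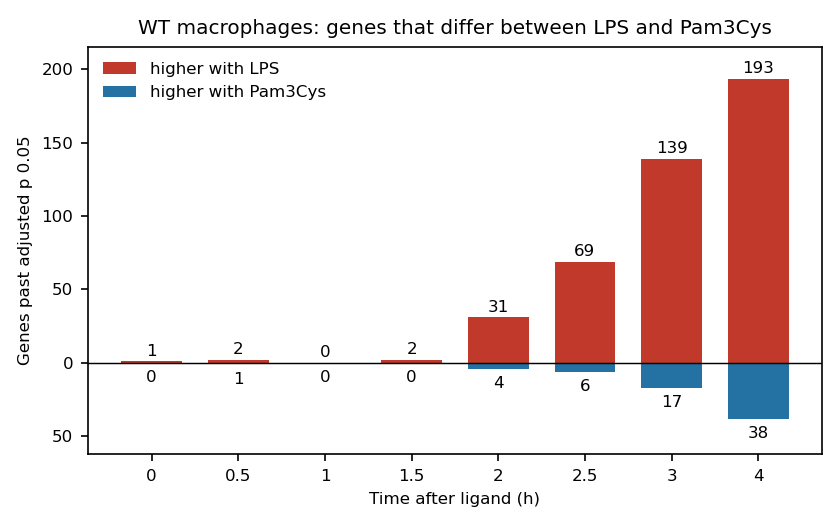
Genes called between LPS and Pam3Cys at each sampled time (x axis, hours; y axis, number of genes, higher with LPS above 0 and lower with LPS below 0), by edgeR's test over single wells with 2 plates per ligand and time. The bars are near 0 up to 1.5 h and reach 193 genes higher and 38 lower at 4 h.

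A split time was also given to each gene: the first sampled time from which the levels differed at least 2-fold, after 10 CPM was added to each, in the same direction on both plates and at every later time. No gene split at 0.5 or 1 h, 10 split at 1.5 h, 41 at 2 h, 35 at 2.5 h, 81 at 3 h and 410 at 4 h, of 9760 genes. The 410 at 4 h rest on a single time, and 228 genes (2.34%) already differed by as much on both plates at time 0, so split times are read below only for genes that also passed the test over plate sums.

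For more depth per value, wells of a plate were summed over time. Early sums joined 0.5 with 1 h, middle sums joined 1.5 with 2 h, and late sums joined the wells of 2.5, 3 and 4 h, which left 9760 genes for testing. Late, 334 genes (3.42%) differed between the ligands, 285 higher with LPS (2.92%) and 49 lower (0.502%). The 334 became 167 without plate 1, 194 without plate 2, and 105 when each ligand's own time 0 wells were subtracted. Of the 285, 10 had split at 1.5 h, 41 at 2 h, 34 at 2.5 h, 56 at 3 h and 85 at 4 h, and 59 had no split time. The median log2 difference over all genes tested was -0.01. Compared separately with the shared time 0 wells, 737 genes (7.55%) rose late with LPS and 387 (3.97%) with Pam3Cys. All late p-values below come from this edgeR fit, all differences are LPS minus Pam3Cys on the log2 scale, and paired values are those of plates 1 and 2.

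Genes that IRF3 and interferon switch on had some of the largest late differences. Rsad2, which encodes the antiviral enzyme viperin, stood at 1492 and 2076 CPM at time 0, 37843 and 30674 CPM late with LPS and 1819 and 1551 CPM late with Pam3Cys. The LPS sums lay far above all others, and the Pam3Cys sums lay within the range at time 0 (log2 difference 4.35, SE 0.32, adjusted p = 3.81e-13). Cmpk2, the neighbouring gene for a mitochondrial nucleotide kinase, reached 4437 and 3083 CPM with LPS against 183 and 146 CPM with Pam3Cys (log2 difference 4.51, SE 0.39, adjusted p = 2.52e-11). Levels of Ifit1, which binds foreign RNA caps, were 6906 and 6278 CPM with LPS and 720.1 and 526 CPM with Pam3Cys (log2 difference 3.40, SE 0.29, adjusted p = 1.23e-12). For both genes the ligands did not overlap. Oasl1, of the oligoadenylate synthetase family, had 936 and 823 CPM with LPS, and its 61.2 and 72.9 CPM with Pam3Cys overlapped its 62.5 and 70.7 CPM at time 0 (log2 difference 3.71, SE 0.31, adjusted p = 3.39e-17). The RNA sensor Ifih1 (MDA5) stood at 935 and 920.0 CPM against 116 and 132 CPM (log2 difference 2.90, SE 0.26, adjusted p = 5.73e-16).

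The interferon-inducible chemokines had the same order. Cxcl10, which draws CXCR3-bearing lymphocytes, was at 4443 and 4121 CPM late with LPS and 364 and 319 CPM with Pam3Cys (log2 difference 3.65, SE 0.40, adjusted p = 1.12e-08), and its relative Cxcl11 at 217 and 178 CPM against 13.0 and 7.22 CPM (log2 difference 4.28, SE 0.57, adjusted p = 2.75e-08). Ccl5 differed from these in that Pam3Cys raised it as well. It stood at 106 and 134 CPM at time 0, 428 and 317 CPM with Pam3Cys and 2968 and 2586 CPM with LPS (log2 difference 2.90, SE 0.27, adjusted p = 2.86e-13). Its change from time 0 passed the test with Pam3Cys (log2 1.64, adjusted p = 3.24e-06) and with LPS (log2 4.54, adjusted p = 4.27e-21).

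Of the 15 genes listed as primary IRF3 targets, 14 passed the filter on low counts and 13 were higher with LPS late, with a median difference of 3.10 over these 13 beside -0.01 over all genes. The 14th, Ifnb1 (interferon-beta), had 0 counts in the late sums of both ligands and no level to compare. Against time 0, 13 of the 14 rose with LPS and 2 with Pam3Cys. Of 78 interferon-stimulated genes tested, 64 were higher with LPS and none lower, with a median of 2.08. With each ligand's own time 0 wells subtracted, 11 IRF3 targets and 37 interferon-stimulated genes were called higher with LPS. In the second list 66 rose from time 0 with LPS, and 5 rose and 1 fell with Pam3Cys. The lists share 10 genes, 71.4% of the first and 12.8% of the second. They were drawn up with earlier results of these data known, and both contrasts with time 0 share its wells.

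Other members ranged widely in level. The interferon-inducible GTPase Iigp1 stood at 2459 and 2081 CPM late with LPS and 115 and 161 CPM with Pam3Cys, beside 197 and 264 CPM at time 0 (log2 difference 4.04, SE 0.54, adjusted p = 6.83e-07). Isg15, a ubiquitin-like modifier, had 579 and 616 CPM against 80.7 and 55.6 CPM (log2 difference 3.13, SE 0.37, adjusted p = 3.94e-10). Irf7, the interferon regulatory factor that amplifies interferon production, had 480.1 and 422 CPM against 144 and 93.9 CPM (log2 difference 1.92, SE 0.24, adjusted p = 1.1e-09). The low-expressed genes Slfn1, a Schlafen family member (125 and 134 against 4.89 and 10.8 CPM), and Pydc4, a pyrin-domain gene (208 and 219 against 15.5 and 9.39 CPM), had differences of 4.00 and 4.10. In each of these genes the lower LPS sum was above the higher Pam3Cys sum. Among 17 genes of interferon receptors and signalling, 4 were higher with LPS and none lower (median 0.54), among them Stat2 (difference 2.36), Stat3 (1.09) and the feedback inhibitor Socs3 (1.05). Without plate 1, Stat3 was at 0.70 (adjusted p = 0.422) and Socs3 at 0.86 (adjusted p = 0.444), and neither was called. Socs3 was not called without plate 2 either, at 1.23 (adjusted p = 0.096).

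**Figure D2:**
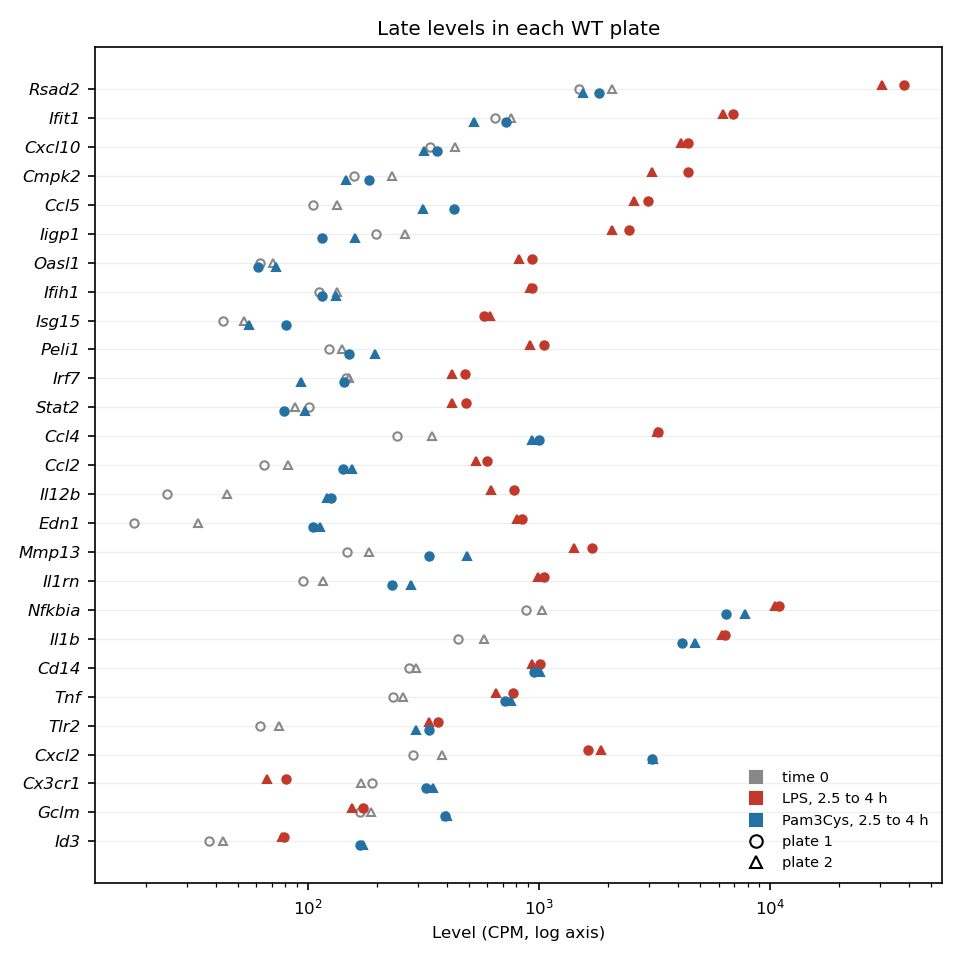
Levels of single genes (CPM on a log axis, 1 point per plate sum) at time 0, late with LPS and late with Pam3Cys. Interferon-stimulated genes such as Rsad2 and Ifit1 are high with LPS and near their time 0 level with Pam3Cys, Tnf overlaps between the ligands, and Cx3cr1 and Gclm are higher with Pam3Cys.

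Over both plates together, the interferon-stimulated genes parted mainly from 2 h on. The median difference of the 14 IRF3 targets over single wells, Ifnb1 included at its fitted value, was 0.04 at time 0, -0.72 at 0.5 h, 0.42 at 1 h, 0.66 at 1.5 h, 2.04 at 2 h, 2.55 at 2.5 h, 3.00 at 3 h and 3.28 at 4 h. The values to 1 h moved in both directions, and the early Pam3Cys wells of plate 2 described above enter those to 1.5 h. On plate 1 the IRF3 targets summed to 6985 CPM with LPS and 3389 CPM with Pam3Cys at 1 h. At 1.5 h these sums were 8631 and 4038 CPM. On that plate LPS was also the higher at time 0, at 5373 against 3314 CPM, and the lower at 0.5 h, at 2836 against 3450 CPM. Plate 2 had 7703 against 8535 CPM at 1 h and 8805 against 6270.5 CPM at 1.5 h. For the interferon-stimulated genes the median was 0.32 at 1.5 h, 1.06 at 2 h, 1.53 at 2.5 h, 1.86 at 3 h and 2.45 at 4 h, and 0, 13, 33, 46 and 56 of them were called at these times. Rsad2 stood at 10581 and 13107 CPM with LPS at 2 h against 1788 and 1571 CPM with Pam3Cys, and at 44975 and 42258 against 1937 and 1716 CPM at 4 h. Ifit1 had 2511 and 3188 against 576 and 515 CPM at 2 h and 7967 and 8068 against 737 and 507 CPM at 4 h. In both genes the LPS wells lay above the Pam3Cys wells on both plates at 2 h and 4 h. Of the 13 IRF3 targets called late, 2 had split at 1.5 h, 9 at 2 h, 1 at 2.5 h and 1 at 4 h. Of the 64 interferon-stimulated genes called, 1 had split at 1.5 h, 23 at 2 h, 13 at 2.5 h, 11 at 3 h and 14 at 4 h, and 2 had no split time.

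**Figure D3:**
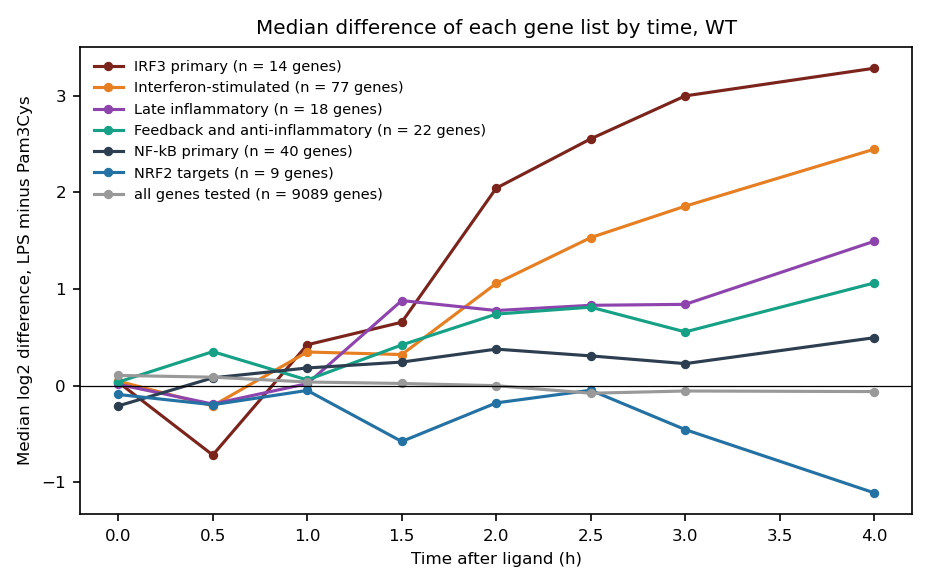
Median log2 difference (LPS minus Pam3Cys) of gene lists at each sampled time (hours), from the test over single wells with 2 plates. The IRF3 targets reach 3.28 and the interferon-stimulated genes 2.45 at 4 h, while the NF-kB targets stay between -0.21 and 0.50.

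The promoters of these genes were searched for 3 motifs. The interferon-stimulated response element (ISRE), searched as GAAA, any 2 bases and GAAA on both strands, was found in the RefSeq promoter (250 bases before to 50 after the start, build GRCm38.p6) of 60 of the 226 late LPS-higher genes with a promoter in the table, 26.5%. Its share was 4.44% of the 45 matched LPS-lower genes, 4.22% of the 7876 matched genes tested and 3.44% of all 32851 promoters. The gamma-activated sequence TTCNNNGAA was in 11.1% of the LPS-higher promoters, 4.44% of the LPS-lower ones and 8.29% of all genes tested. The NF-kB consensus was in 18.1%, 15.6% and 12.2%. Each window below runs 5′ to 3′ along the gene's own strand, with the motif in capitals. The first 5 are genes higher with LPS that carry an ISRE: Rsad2 (chr12:26456503-26456602, minus strand), Ifit1 (chr19:34640739-34640838, plus strand), Isg15 (chr4:156200849-156200948, minus strand), Cxcl10 (chr5:92349030-92349129, minus strand) and Edn1 (chr13:42301356-42301455, plus strand).
Rsad2: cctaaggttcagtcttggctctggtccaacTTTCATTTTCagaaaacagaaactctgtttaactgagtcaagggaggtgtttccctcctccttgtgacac
Ifit1: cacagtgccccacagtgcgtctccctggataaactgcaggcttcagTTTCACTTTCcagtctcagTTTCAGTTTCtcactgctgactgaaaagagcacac
Isg15: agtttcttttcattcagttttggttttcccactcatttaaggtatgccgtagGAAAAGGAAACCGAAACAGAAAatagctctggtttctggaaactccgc
Cxcl10: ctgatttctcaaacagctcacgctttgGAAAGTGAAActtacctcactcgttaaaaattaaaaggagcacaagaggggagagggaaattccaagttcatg
Edn1: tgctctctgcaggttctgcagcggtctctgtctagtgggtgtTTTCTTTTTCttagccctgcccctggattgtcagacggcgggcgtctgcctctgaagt
The windows of Nfkbia (chr12:55492648-55492747, minus strand) and Cxcl2 (chr5:90903759-90903858, plus strand), which both ligands induce, show the NF-kB consensus in capitals.
Nfkbia: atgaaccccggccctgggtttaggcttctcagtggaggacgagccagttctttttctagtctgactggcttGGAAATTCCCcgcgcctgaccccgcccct
Cxcl2: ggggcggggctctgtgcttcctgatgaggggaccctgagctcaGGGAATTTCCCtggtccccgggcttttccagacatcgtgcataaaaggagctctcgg
The first capital stands 120 bases before the annotated start in Rsad2, 104 and 85 in Ifit1, 213 in Cxcl10 and 78 in Edn1. Isg15 holds 3 overlapping matches, at 78, 72 and 66 bases before the start. The Cxcl10 promoter also holds 3 matches to the NF-kB consensus. The one at 159 bases before the start lies in the window shown and is left in lower case. Of the genes above with large LPS differences, Cmpk2, Oasl1, Irf7, Slfn1 and Peli1 held no ISRE match in their promoter. A match is a run of letters in this window and shows no binding.

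The first genes to part included inflammatory chemokines and cytokines. The 10 genes that split at 1.5 h were Ccl4, Ccl2, Peli1, Il12b, Edn1, Tnfsf15, Isg15, Ccnd2, Tiparp and the long RNA AW112010. All 10 were higher with LPS. Peli1, a ubiquitin ligase of Toll-like receptor signalling, stood at 629.8 and 607 CPM with LPS at 1.5 h against 184 and 228 CPM with Pam3Cys. Ccl4, a chemokine for monocytes and T cells, was at 1954 and 2620.4 against 651 and 1073 CPM. Il12b, the p40 chain of interleukins 12 and 23, was at 733 and 746 against 155 and 155 CPM. In each of the 3 genes both LPS wells exceeded both Pam3Cys wells, and the test at 1.5 h called Peli1 and Ccl4 (adjusted p = 0.0167 and 0.0308) but not Il12b (adjusted p = 0.206). Neither of the calls held with DESeq2's size factors.

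Late, the gap of Peli1 was 1054 and 915 against 152 and 196 CPM (log2 difference 2.50, SE 0.24, adjusted p = 1.55e-14), and that of Il12b 783 and 620.2 against 126 and 121 CPM (log2 difference 2.50, SE 0.34, adjusted p = 2.01e-07). Ccnd2 (chr6:127125162-127152193, mm10), the cell cycle regulator cyclin D2, had one of the smallest p-values of all genes: 3797 and 2944 CPM with LPS against 348 and 412 CPM with Pam3Cys (log2 difference 3.15, SE 0.23, adjusted p = 9.4e-21). Tiparp, an ADP-ribosyltransferase of the aryl hydrocarbon receptor pathway, had 969 and 1027 against 96.2 and 114 CPM (log2 difference 3.24, SE 0.26, adjusted p = 7.42e-18). Tnfsf15, the cytokine TL1A, had 344 and 259 against 36.7 and 33.9 CPM (log2 difference 3.09, SE 0.44, adjusted p = 7.85e-08). Ccnd2 and Tiparp belong to no list and were chosen after their values were seen. Edn1 encodes the vasoconstrictor endothelin 1, and stood at 844 and 805 against 106 and 113 CPM (log2 difference 2.91, SE 0.50, adjusted p = 6.68e-05).

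**Figure D4:**
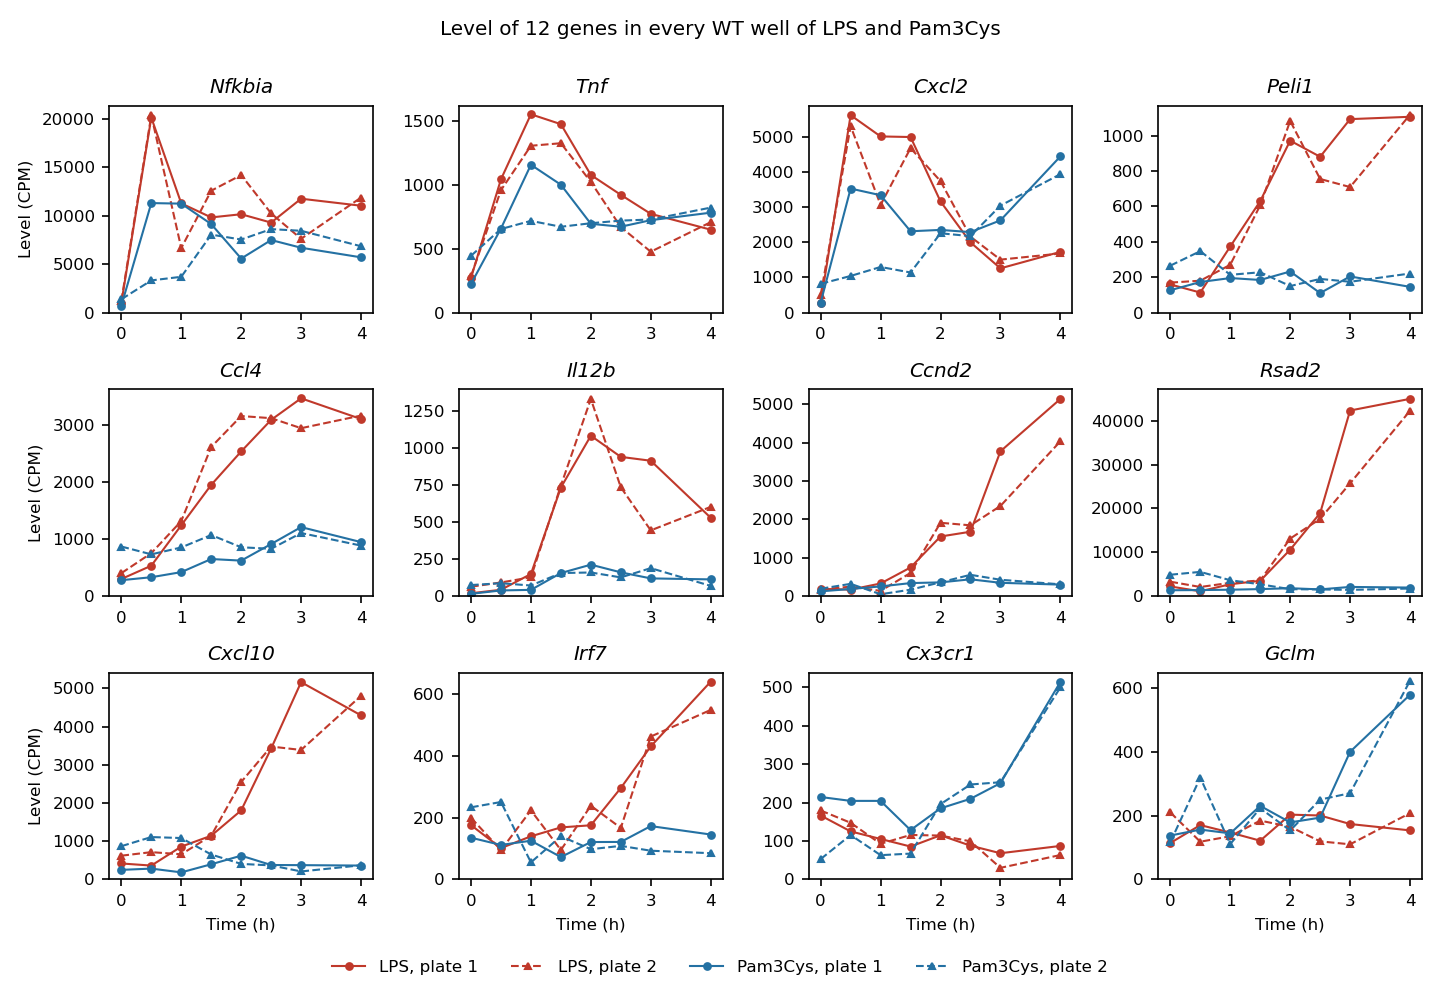
Levels (CPM) of single genes at each sampled time (hours), with 1 line per ligand and plate. Peli1 and Il12b part at 1.5 h, Rsad2 and Cxcl10 at 2 h, and Cx3cr1 from 2.5 h with Pam3Cys above LPS.

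The NF-kB targets rose with both ligands. Of 40 listed genes, all tested, 38 rose late against time 0 with LPS and 32 with Pam3Cys. Early, 20 rose with LPS (0.902% of all genes did) and 21 with Pam3Cys (0.85%). Set directly against each other, 7 were higher with LPS late and 2 lower, with a median difference of 0.45, and 2 were higher and none lower with own time 0 wells subtracted. Tnf, the cytokine, overlapped between the ligands in the late sums, at 772 and 652 CPM with LPS and 714 and 760.3 CPM with Pam3Cys (log2 difference -0.05, SE 0.21, adjusted p = 0.986). Its level at time 0 was 235 and 258 CPM. From 0.5 to 2 h both LPS wells of Tnf lay above both Pam3Cys wells, without a call at any of these times. At 1.5 h they stood at 1478 and 1329 against 1003 and 674 CPM (log2 difference 0.73). Il1b, interleukin 1 beta, was called in the middle sums, with 5886 and 6123 CPM against 3507 and 3278 CPM (log2 difference 0.82, SE 0.18, adjusted p = 0.00443), and not late (log2 difference 0.50, SE 0.18, adjusted p = 0.123). Nfkbia, the NF-kB inhibitor and target, had 10979 and 10477 against 6443 and 7809.6 CPM late, with no overlap between the ligands but a difference that did not pass the test (log2 difference 0.59, SE 0.21, adjusted p = 0.154). Cxcl1 (-0.69), Tlr2 (0.15), Cd14 (-0.01) and Ptgs2 (0.82) were not called late either.

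The 7 NF-kB targets higher with LPS were the chemokines Ccl2, Ccl4 and Ccl7, the co-stimulatory receptor Cd40, the kinase Map3k8, the deubiquitinase Tnfaip3 and the caspase-8 regulator Cflar. Ccl7 had 539 and 517 CPM late against 113 and 93.9 CPM (log2 difference 2.35, SE 0.27, adjusted p = 2.83e-11), and Ccl2 595 and 534 against 143 and 156 CPM (log2 difference 1.92, SE 0.30, adjusted p = 2.49e-06). Ccl4 had 3274 and 3233 against 1006 and 931 CPM (log2 difference 1.75, SE 0.24, adjusted p = 6.5e-08). Cd40 had 651 and 652 against 235 and 235 CPM (log2 difference 1.47, SE 0.28, adjusted p = 4.75e-05). In none of the 4 did the ligands overlap. Against time 0, Pam3Cys raised Ccl2, Ccl4 and Cd40 late, and Ccl7 did not pass that test (log2 0.27, adjusted p = 0.779). Cflar had the smallest difference of the 7, at 0.60.

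Some secondary cytokines and brakes on the response were also higher with LPS, but nearly all of these calls were lost when each ligand's own time 0 wells were subtracted. That subtraction uses 1 time 0 well per ligand and plate, among them the Pam3Cys well of plate 2 with 84108 counts. Which well the loss rests on was not tested. The late inflammatory list then had 1 gene called of 19 tested (median 1.02), and the feedback list none of 22 by edgeR (median 0.77), with 8 of them at an unadjusted p under 0.05. Of 18 late inflammatory genes tested, 7 were higher with LPS and none lower (median 1.35), among them Il12b, Edn1, Il6, Il10, Mmp13 and Cp. Il6 stood at 124 and 122 against 28.5 and 31.0 CPM (log2 difference 2.04, SE 0.60, adjusted p = 0.0401). The anti-inflammatory Il10 was near the threshold (log2 difference 1.87, SE 0.57, adjusted p = 0.0438). Mmp13, a collagenase, had 1706 and 1427 against 336 and 489 CPM (log2 difference 1.92, SE 0.24, adjusted p = 1.1e-09). Of 22 feedback genes, 9 were higher with LPS and none lower (median 0.93). The interleukin 1 receptor antagonist Il1rn had 1053 and 988 against 232 and 279 CPM (log2 difference 2.00, SE 0.26, adjusted p = 1.54e-09), the phosphatase Dusp2 a difference of 1.53 and the checkpoint ligand Cd274 (PD-L1) one of 1.84. Il6 was not called without plate 1, at 1.95 (adjusted p = 0.311), without plate 2, at 2.11 (adjusted p = 0.272), or by DESeq2. Il10 was not called without plate 1, at 1.73 (adjusted p = 0.486), or without plate 2, at 1.98 (adjusted p = 0.402). Without plate 1, Cp was at 0.70 (adjusted p = 0.466) and Cd274 at 1.50 (adjusted p = 0.0781).

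Fewer genes of the other lists differed. Among 26 immediate early genes tested, Dusp1 (1.04), Dusp2 and Mafk were higher with LPS late (median 0.29). Of 18 genes of hypoxia and glycolysis, Hk2 (1.63) and Pfkfb3 (1.56), which feed and drive glycolysis, were higher with LPS (median -0.10). With 1 plate left out, Dusp1 was at 0.97 (adjusted p = 0.229) without plate 1 and 1.08 (adjusted p = 0.122) without plate 2, Mafk at 2.11 (adjusted p = 0.528) and 3.29 (adjusted p = 0.202), Hk2 at 1.82 (adjusted p = 0.0836) and 1.43 (adjusted p = 0.313), and Pfkfb3 at 1.28 (adjusted p = 0.392) and 1.81 (adjusted p = 0.073). The Fc receptor Fcgr1 was higher with LPS, at 256 and 273 CPM against 97.9 and 65.7 CPM (log2 difference 1.69, SE 0.26, adjusted p = 5.91e-07), and was 1 of 2 genes called among 22 of macrophage identity. In 6 lists, 92 genes in all, edgeR called none and 4 were at an unadjusted p under 0.05, beside 3.42% called and 1073 of 9760 at such a p over all genes: Toll receptor recognition, Toll adaptors and proximal kinases, cholesterol synthesis and uptake, LXR targets, heat shock and the unfolded protein response, and the cell cycle. Among them were Tlr4 (-0.64, with 19 and 43 counts behind it) and Myd88 (98.0 and 96.5 against 61.2 and 54.2 CPM, difference 0.75). Sox4, a factor that fell with both ligands, was at 487 and 369 CPM at time 0, 19.0 and 30.9 CPM with LPS and 34.3 and 12.3 CPM with Pam3Cys.

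Few genes were higher with Pam3Cys, and Cx3cr1 led those with ample counts. This receptor for fractalkine (chr9:119901616-120069879, mm10) stood at 189 and 171 CPM at time 0, 81.0 and 66.9 CPM late with LPS and 325 and 348 CPM late with Pam3Cys (log2 difference -2.18, SE 0.28, adjusted p = 1.15e-09). It moved in opposite directions, falling with LPS by 1.28 on the log2 scale (adjusted p = 0.00019) and rising with Pam3Cys by 0.90 (adjusted p = 0.0117) against time 0. At 4 h it was at 87.3 and 63.6 CPM with LPS and 514 and 499.7 CPM with Pam3Cys. Its split at 2.5 h was the earliest among the 49 genes lower with LPS. Of the other 48, 6 split at 3 h, 14 at 4 h and 28 had no split time.

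Targets of NRF2, the factor of the oxidative stress response, were also among the genes higher with Pam3Cys. Of 9 tested, 3 were lower with LPS and none higher, with a median of -0.51, beside 0.502% of all genes called lower. Against time 0, 5 of the 9 rose with Pam3Cys and 2 with LPS. In the fit of both genotypes described below, their median was -0.54 in WT and 0.61 in the KO. The gap differed between genotypes for none of the 9. Gclm (chr3:122245557-122270732, mm10), the modifier subunit of glutathione synthesis, had 169 and 187 CPM at time 0, 174 and 156 CPM with LPS and 391 and 402 CPM with Pam3Cys (log2 difference -1.26, SE 0.23, adjusted p = 3.12e-05). The LPS sums overlapped time 0, and the Pam3Cys sums lay above both. Its catalytic partner Gclc had 35.0 and 21.9 against 84.8 and 67.2 CPM (log2 difference -1.39, SE 0.39, adjusted p = 0.0202), and the sulfiredoxin gene Srxn1 a difference of -1.12 (adjusted p = 0.0331). The NRF2 gene itself, Nfe2l2, chosen after its values were seen, had 477 and 519.8 against 966 and 1182 CPM (log2 difference -1.11, SE 0.20, adjusted p = 3.92e-05). Id3, an inhibitor of DNA-binding factors, had 79.0 and 77.2 against 169 and 173 CPM (log2 difference -1.13, SE 0.29, adjusted p = 0.00774). With 1 plate a group, Gclc was at -1.63 (adjusted p = 0.168) and -1.28 (adjusted p = 0.376), Srxn1 at -1.08 (adjusted p = 0.356) and -1.18 (adjusted p = 0.322), and Id3 at -1.19 (adjusted p = 0.128) and -1.10 (adjusted p = 0.185) without plates 1 and 2, so none of the 3 was called from a single plate.

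The genes with the most negative differences had few counts. Of the 12 chosen by size, 11 had 16 or fewer counts in the LPS sums, and Cx3cr1 was the exception with 133. Kif20b, a mitotic kinesin, had 4 counts with LPS and 57 with Pam3Cys, and Arhgap27 had 0 and 31. For such genes the fitted size depends on the few counts, and it is not given.

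The ligands differed little in the early sums. Early, edgeR called 1 gene higher with LPS (0.0102%) and none lower and DESeq2 called 6 genes, with 580 genes at an unadjusted p under 0.05 in either direction. That gene, Phlda1, a pleckstrin-homology-like protein of survival signalling, was at 1117 and 1050.2 CPM with LPS and 511 and 228 CPM with Pam3Cys (log2 difference 1.48, SE 0.28, adjusted p = 0.00746). The low Pam3Cys sum is that of the shallow wells. In plate 1 alone the LPS level was also the higher. Without these wells Phlda1 was not called and Ccl4 was. Nfkbia, called at 0.5 h, stood there at 20147 and 20379 CPM with LPS and 11315 and 3328 CPM with Pam3Cys, the last value from the well with 106245 counts. That well also had the low immediate early sum given above. Without plate 2 no early gene was called, and without plate 1 the count was 116, so the early calls rest on which plate is used.

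In the middle sums 46 genes differed (0.471%), 40 higher with LPS (0.41%) and 6 lower. Without plate 2 the count was 12, and without plate 1 it was 25. Of 14 IRF3 targets 9 were higher, and of 78 interferon-stimulated genes 13. The 6 lower included Tbc1d15, a GTPase regulator, at 95.8 and 73.9 CPM with LPS and 314 and 325 CPM with Pam3Cys (log2 difference -1.91, SE 0.38, adjusted p = 0.00107), and Id3 (-1.19). The gap of Tbc1d15 lay at 2 h, with 63.5 and 114 CPM with LPS against 626 and 435 CPM with Pam3Cys. At 1.5 h the ligands overlapped, at 130 and 34.1 against 129 and 135 CPM. Late, Tbc1d15 was not called (log2 difference -0.55, SE 0.37, adjusted p = 0.698).

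The change of the difference from early to late was tested in the same fit and passed for 120 genes (1.23%), 109 toward LPS and 11 toward Pam3Cys. The count was 41 without plate 2 and 180 without plate 1. The early Pam3Cys sum of plate 2 in this contrast held 228755 counts, all from the shallow wells of 0.5 and 1 h. Without those wells only 1 plate is left in that group. Among genes with at least 30 counts, Rsad2, Cmpk2, Slfn1, Arid5a, Phf11c and Csprs had the largest changes toward LPS. Cxcl2, a neutrophil chemokine, turned over. It stood at 5202 and 4289 CPM with LPS and 3371 and 1292 CPM with Pam3Cys early, and at 4026 and 4166 against 2299 and 1849 CPM in the middle (log2 difference 0.98, SE 0.24, adjusted p = 0.0261). Late it stood at 1630.5 and 1855 against 3095 and 3122 CPM (log2 difference -0.83, SE 0.23, adjusted p = 0.0272). LPS was thus above Pam3Cys in the early and middle sums and below it in the late ones, and the change was -1.84 (SE 0.33, adjusted p = 0.0002). Without plate 1 the late difference of Cxcl2 was -0.77 (adjusted p = 0.156). Its middle difference was 0.81 without plate 2 (adjusted p = 0.461), and it was not called with the plate as a block either. The difference of Phlda1 also changed, by -2.09 (adjusted p = 0.000185), but its late difference was not called (log2 difference -0.61, SE 0.27, adjusted p = 0.347). Cxcl3, another chemokine gene, chosen after its values were seen, had 92.0 and 118 against 232 and 249.8 CPM late (log2 difference -1.20, SE 0.35, adjusted p = 0.0297).

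In the WT wells with muramyl dipeptide and LPS, the late mean lay nearer that of LPS than that of Pam3Cys in 280 of the 285 genes higher with LPS and in 28 of the 49 lower. Rsad2 was at 30890.0 and 32642 CPM there, Cx3cr1 at 93.9 and 76.6 CPM and Gclm at 134 and 173 CPM. Cxcl3 was at 166 and 203 CPM, between the 2 ligands.

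Whether the gap between the ligands depends on Myd88 was asked with the late KO wells, in a fit of both genotypes with 10562 genes tested. The targeted gene, Myd88, stood at 98.0 and 96.5 CPM in WT with LPS and 61.2 and 54.2 CPM in WT with Pam3Cys, and at 13.6 and 7.52 CPM and 9.26 and 31.6 CPM in the KO. It was lower in the KO sums than in all WT sums but not absent, and 3′ counts do not show which exons remain. The KO cells are from 2 plates of their own, so genotype and plate cannot be told apart. In this fit 465 genes (4.4%) differed between the ligands late in the KO, 335 higher with LPS (3.17%) and 130 lower, and 178 (1.69%) in WT.

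The gap itself differed between genotypes for 39 genes (0.369%), larger in the KO for 36 (0.341%) and smaller for 3. The 39 became 8 to 14 with 1 plate left out and 67 by DESeq2. NF-kB targets were 12 of the 36. In the KO, 28 of the 40 NF-kB targets were higher with LPS than with Pam3Cys, with a median gap of 2.11 beside 0.42 in WT. The gap of the interferon-stimulated genes had a median of 2.02 in the KO and 2.05 in WT, and it differed between genotypes for 1 of 78, Irf1. For the IRF3 targets the medians were 3.37 in the KO and, over the 13 with counts, 3.07 in WT, with 1 of 14, Irg1, larger in the KO. Rsad2 was at 25153 and 24038 CPM with LPS and 1077 and 909.7 CPM with Pam3Cys in the KO.

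With levels scaled over both genotypes, Nfkbia, LPS set against Pam3Cys, had 11065 and 10570.0 against 6663 and 8084 CPM in WT and 3848 and 3841 against 813 and 901 CPM in the KO (KO minus WT 1.61, SE 0.33, adjusted p = 0.00309). Cd40 had 656 and 658 against 243 and 244 CPM in WT and 445 and 496 against 21.9 and 6.49 CPM in the KO (KO minus WT 3.61, SE 0.59, adjusted p = 3.35e-05). Clec4e, the C-type lectin Mincle, chosen after its values were seen, had 1078 and 1015 against 1048 and 1349 CPM in WT and 801 and 878 against 69.0 and 65.7 CPM in the KO (KO minus WT 3.83, SE 0.45, adjusted p = 4.25e-10). In WT the ligands overlapped for Clec4e, and in the KO its Pam3Cys level was the low one. Cx3cr1 kept Pam3Cys above LPS in the KO, at 147.9 and 159.7 against 353 and 319 CPM, and its gap was not among the 39.

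**Figure D5:**
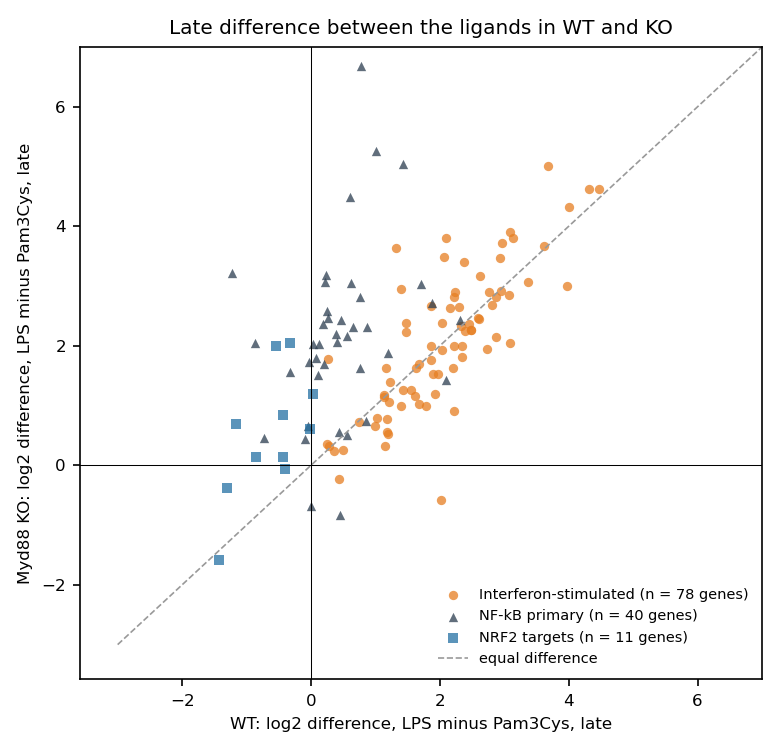
Late log2 difference between LPS and Pam3Cys in WT (x axis) and in the Myd88 KO (y axis), each from 2 plates per group. Each point is 1 gene of the NF-kB, NRF2 or interferon-stimulated list. NF-kB targets lie mostly above the diagonal, with a median of 2.11 in the KO and 0.42 in WT, and interferon-stimulated genes lie along it.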

How the data were processed

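Expression was measured in single wells of WT macrophages by sequencing transcript 3′ ends, a modified SCRB-Seq protocol per the labels. The authors deposited raw counts, whole numbers, for each gene in each well. The submitters' processing notes name BWA and the mm10 build. No source used here names the aligner's version, the annotation or how molecular tags were collapsed. Antisense and near-identical genes may share counts.

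Wells were grouped by label alone. The deposited counts were summed within a plate over the wells of a time class and tested in R 4.3.3 with edgeR 4.0.16: filterByExpr with a minimum count of 10, TMM scaling, and a robust quasi-likelihood fit of 74 plate sums in 37 WT groups. The 12 ligands share one estimate of the spread because 2 plates per group give few degrees of freedom. Single wells were fitted likewise (96 groups of 2), and both genotypes together as sums in 74 groups. P-values were adjusted by Benjamini and Hochberg, and measure only the spread between these plates, which may be technical. The procedure was tested on simulated data. No wells were identical: chi-square per degree of freedom between plates was 3.23 or more, with a median of 3.98. Plate numbers are shared labels. Deviations of same-numbered groups had a median correlation of 0.06 over 666 pairs of groups, and the plate block is an alternative.

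The members and gene lists were chosen with earlier results of these data known. Named genes were a fixed set of 28, the 12 largest late differences each way with at least 30 counts, 6 each way in other WT comparisons, 3 each way between genotypes, and up to 4 per list. Ccnd2, Tiparp, Nfe2l2, Cxcl3, Clec4e, Irf1, Cflar and AW112010 were added after their values were seen. Promoters are from RefSeq (GRCm38.p6) and gene positions from GENCODE, by symbol. Some listed genes are counted in their lists and not reported here by name. No fold is given where a group holds 3 or fewer counts of a gene. Alternatives were DESeq2 1.42.0, its size factors, no filter, no Rn45s, the plate block, fewer or more groups in the fit, subtraction of own time 0 wells, and wells or plates left out.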

Additional observations from a re-analysis of the deposited data

Results flagged for a closer look

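The late gap between LPS and Pam3Cys differed between the genotypes by edgeR's test of the difference itself in 6 genes chosen for the size of that difference, each from 2 plates per group. Mmp14, a membrane-bound metalloproteinase, stood at 959 and 794 against 591 and 623 CPM in WT and 386 and 265 against 9.26 and 13.0 CPM in the KO, LPS set against Pam3Cys, a difference of gaps of 4.32 (SE 0.77, adjusted p = 0.0003). Hspa1b, an inducible HSP70, stood at 29.2 and 46.7 against 59.9 and 60.5 CPM in WT and 56.1 and 84.6 against 1.68 and 8.93 CPM in the KO, a difference of 4.35 (SE 1.08, adjusted p = 0.0347). Hivep3, a zinc finger gene, stood at 93.8 and 81.8 against 150.1 and 141 CPM in WT and 71.4 and 20.7 against 3.37 and 3.25 CPM in the KO, a difference of 4.48 (SE 1.07, adjusted p = 0.0266) that rests on 8 counts in the KO Pam3Cys sums. In all 3 the KO level with Pam3Cys was the low one.

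The gap moved the other way in 3 genes. Rasa1, a Ras GTPase activator, stood at 244 and 229.8 against 232 and 229 CPM in WT and 179 and 254 against 504 and 645 CPM in the KO, a difference of -1.45 (SE 0.37, adjusted p = 0.0399). Rell1, a receptor-like gene of the TNF receptor family, stood at 136 and 94.8 against 167 and 123 CPM in WT and 128 and 117 against 412 and 472 CPM in the KO, a difference of -1.54 (SE 0.39, adjusted p = 0.0399). In both the ligands overlapped in WT and Pam3Cys was the higher in the KO. Zcchc11, a terminal uridylyltransferase, stood at 126 and 112 against 39.6 and 35.1 CPM in WT and 98.6 and 56.4 against 91.7 and 149 CPM in the KO, a difference of -2.29 (SE 0.57, adjusted p = 0.0347), with LPS above Pam3Cys in WT and an overlap in the KO. Genotype and plate cannot be told apart here.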

How the results depend on the processing

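Late, 334 genes were called, and the count was 105 when each ligand's own time 0 wells were subtracted and 178 with WT and KO sums in 1 fit. It ranged from 167 to 194 without 1 plate. Taking single wells in place of sums gave 468 genes, of which 68.6% were higher with LPS in place of 85.3%, and there the median of all genes was -0.11. In the middle sums the 46 genes became 9 with own time 0 wells subtracted, 28 with only time 0, LPS and Pam3Cys sums in the fit, 16 with WT and KO together, and 12 to 25 without 1 plate. The early count of 1 became 6 with the DESeq2 test, 5 with no filter, 0 with only time 0, LPS and Pam3Cys sums, 0 with WT and KO together, and 0 to 116 without 1 plate. With own time 0 wells subtracted the early call was Tcea1, and without the wells under 150000 counts it was Ccl4. The 120 genes whose difference changed over time became 54 with WT and KO together and 41 to 180 without 1 plate, and the 296 called at any single time became 118 to 239. At time 0 itself, 1 gene was called with both plates and 105 without plate 1. The genotype difference of 39 genes became 67 with the DESeq2 test and 8 to 14 without 1 plate. The cause of each was not tested, except that leaving out a plate leaves 1 sample in an arm, which is assumed to vary like the others.

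With the plate as a replicate block, 1 gene was called early, 49 in the middle, 356 late, 138 for the change, 315 at any time and 44 for the genotype difference. Within a genotype all wells with a number are on the plate of that number, the numbers 1 and 2 recur in the other genotype, and the labels name no shared animal or day. Among named genes the block ended the middle call of Cxcl2 and added calls of Stat2 in the middle and Neat1 late. Correlation of deviations between LPS and Pam3Cys was 0.37 early, 0.09 in the middle and 0.06 late.

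Of 70 named genes called late, 48 were no longer called after subtraction of own time 0 wells, and Lhx2 (-1.38) and Lipg (-1.30) changed sign. With WT and KO together 32 were no longer called, and 36 and 27 without plates 1 and 2, with no change of sign. The IRF3, interferon-stimulated and NF-kB medians stayed above 0, and the NRF2 median below 0, under all settings run. At these depths a difference in genes with few counts was not detectable in many cases.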

Other observations

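Several further genes differed late. Arid5a, an RNA-binding protein that stabilises inflammatory transcripts, stood at 52.0 and 66.9 CPM with LPS and 1.63 and 3.61 CPM with Pam3Cys (log2 difference 4.41, SE 0.79, adjusted p = 1.63e-05 by edgeR). Lipg, endothelial lipase, stood at 157 and 147 against 3.26 and 6.50 CPM (log2 difference 4.91, SE 0.96, adjusted p = 0.000332), and was not called without plate 1, at 4.45 (adjusted p = 0.0781). Cdkn1a, the cell cycle inhibitor p21, stood at 642 and 707 CPM at time 0, 9169.6 and 6723 CPM with LPS and 3691 and 4146 CPM with Pam3Cys (log2 difference 1.02, SE 0.23, adjusted p = 0.00258), and without plate 1 at 0.68 (adjusted p = 0.274). Rgs2, a regulator of G-protein signalling, fell with both ligands, from 1198 and 1192 CPM at time 0 to 371 and 328 CPM with LPS and 175 and 191 CPM with Pam3Cys (log2 difference 0.93, SE 0.22, adjusted p = 0.00224), and the difference without plate 1 was 0.76 (adjusted p = 0.155). In each of the 4 genes the ligands did not overlap. Rgs2 was the 1 gene higher with LPS among 22 listed as repressed by Toll-like receptor ligands, of which Cx3cr1 and Id3 were lower (median 0.07), and Cdkn1a the 1 gene called among 8 of mitochondrial and stress RNA (median -0.05). Over all genes, 2.92% were called higher with LPS late and 0.502% lower. A count of 1 in a list of 8 or 22 genes is too small to read as a result about the list.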
